A study of Mus musculus with 8 samples.

Results

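The genes described here carry thyroid hormone across membranes, switch it on or off, or hold it inside cells: the transporter genes Slc16a10, Slco1c1, Slc7a5, Slc7a8 and Slc3a2, the deiodinase genes Dio2 and Dio3, and Crym. They were taken by their GENCODE M21 symbols, and all 8 were present among the 55450 genes of the count tables. The values are counts of sequencing reads from nuclear RNA. Nuclei were sorted by fluorescence from the frozen cerebral cortex of juvenile mice, 1 cortex per library, and are labelled as those of GABAergic neurons, which inhibit their neighbours. Controls were Thra+/+ (4 libraries, numbered 1 to 4). The mutants were Thra+/AMI, with 1 normal and 1 mutant copy of Thra, the gene of thyroid hormone receptor alpha, and the mutant receptor is dominant negative. They gave 3 libraries of their own, numbered 6, 7 and 8. Mice of both groups carried a Cre driver transgene for GABAergic neurons and a Cre-dependent reporter that makes nuclei fluorescent, and the mutant allele was likewise limited to Cre-positive cells, so other cortical cells keep a normal receptor. Which driver was used is not given in the sources used here. Another table, labelled mutant 10, held the same counts as that of mutant 7 (0 of 55220 comparable genes differed), and the pair was counted as 1 library. Each library comes from a separate cortex.

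Thyroxine, the main hormone in blood, enters the brain through carrier proteins in the vessel wall and in cell membranes, and is turned into the more active triiodothyronine by removal of an outer-ring iodine. In brain this step is the work of the type 2 deiodinase, best known from astrocytes, and the product then reaches the nuclear receptors of neurons. The type 3 deiodinase, best known from neurons, removes an inner-ring iodine and inactivates both hormones. The receptor studied here acts downstream of all of these proteins, and the comparison addresses whether their genes differ in level when GABAergic neurons carry a receptor that blocks hormone action.

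Both deiodinases hold selenocysteine at their active site, read from an in-frame TGA codon that would otherwise stop translation. The codon is shown because it marks both enzymes of the group and ties them to the genes of selenocysteine incorporation described further on. The lines give coding sequence from GENCODE M21 transcripts on GRCm38, 5′ to 3′, with the TGA in capitals. Dio2 has 2 in-frame TGA codons annotated as selenocysteine, at 130 and 263, and Dio3 has 1. The first Dio2 codon, the one aligned here with that of Dio3, is number 130 of 266 (chr12:90729793-90729855, minus strand), and the Dio3 codon is number 170 of 304 (chr12:110279709-110279771, plus strand). Of the 63 bases shown, 41 are identical between the genes (65.1%).
Dio2: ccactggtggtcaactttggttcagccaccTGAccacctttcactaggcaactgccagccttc
Dio3: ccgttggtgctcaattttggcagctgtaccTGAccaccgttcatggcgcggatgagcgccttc

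Promoters are shown for the 3 genes with the smallest p-values in the comparison between groups. Each is the 250 bases before the RefSeq start on GRCm38.p6, on the gene's own strand, for Slc16a10 at chr10:40142255-40142504, Slc7a8 at chr14:54781887-54782136 and Slc3a2 at chr19:8713898-8714147, all on the minus strand. RefSeq entries were matched by symbol for 6 of the 8 genes. The Slc3a2 window lies within the longer GENCODE span of that gene. Capitals mark GGTCA on either strand (TGACC when on the other strand), the last 5 letters of AGGTCA, the 6-letter element that thyroid hormone receptors bind.
Slc16a10: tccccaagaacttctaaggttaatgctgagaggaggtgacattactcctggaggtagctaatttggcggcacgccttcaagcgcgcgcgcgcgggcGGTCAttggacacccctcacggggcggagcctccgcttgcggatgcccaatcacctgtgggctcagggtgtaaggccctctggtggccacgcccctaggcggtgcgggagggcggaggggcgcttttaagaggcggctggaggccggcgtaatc
Slc7a8: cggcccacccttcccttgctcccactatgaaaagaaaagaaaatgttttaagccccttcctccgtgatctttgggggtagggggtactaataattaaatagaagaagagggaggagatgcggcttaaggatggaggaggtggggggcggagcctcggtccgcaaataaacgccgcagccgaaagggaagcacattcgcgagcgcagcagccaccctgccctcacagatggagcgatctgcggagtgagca
Slc3a2: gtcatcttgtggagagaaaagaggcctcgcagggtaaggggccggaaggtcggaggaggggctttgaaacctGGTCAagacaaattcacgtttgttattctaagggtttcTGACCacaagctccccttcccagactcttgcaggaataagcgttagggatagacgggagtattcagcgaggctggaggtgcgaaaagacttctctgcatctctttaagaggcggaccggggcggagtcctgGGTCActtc

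The full AGGTCA was in none of the 6 promoters of these genes and in 14.0% of all 32851 promoter windows of the same length. Its direct repeat, 2 copies on 1 strand with 4 free bases between them, was in 0.0152% of all windows. The repeat contains AGGTCA, so it could not be in any of the 6. GGTCA, which is part of AGGTCA, was in 2 of the 6 (Slc16a10 and Slc3a2) and in 35.2% of all windows. The Slc16a10 match begins 154 bases before the start, and those of Slc3a2 at 178, 140 and 9. These are matches of letters, searched on both strands, and show nothing of binding.

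Library totals ran from 10747169 to 13804734 counts, and the limit that 3 counts allow was 0.226 to 0.275 CPM. CPM here are counts scaled to a common library size with edgeR's TMM factors. Summed GABAergic markers lay between 5148 and 6890 CPM over the 7 libraries and summed glutamatergic markers between 220.1 and 343.0. Thra itself was at 108.0, 125.5, 118.8 and 105.5 CPM in controls 1 to 4 and at 77.6, 96.3 and 88.6 CPM in mutants 6, 7 and 8. These groups did not overlap, and edgeR fitted a log2 difference of -0.39 ± 0.11 (SE, adjusted p = 0.0543), while DESeq2 and limma-voom both called it. The counts do not separate the mutant from the normal allele. Controls 1 and 4 stood apart from each other by gene length: the median log2 ratio of control 1 to control 4 was 0.44 for 4563 genes shorter than 10 kb and -0.70 for 2529 genes longer than 100 kb. Control 4 and mutant 8 had 4 and 3 reads on 4 Y-linked genes, and the other 5 libraries had 5094 to 6644. Results that change their call or direction without controls 1 or 4 are given both ways.

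Slc7a5, the light chain of the main large amino acid carrier and a transporter of both thyroid hormones, was listed at 0 in all 7 libraries, and this 0 says nothing of its level. Its span (ENSMUSG00000040010.10, chr8:121881150-121907694, minus strand) lies wholly inside that of Gm20388 (ENSMUSG00000092329.1, chr8:119910841-124345722, plus strand), a far longer annotated gene that was given 1242 to 1697 reads per library. All 71 protein-coding genes whose whole span lies inside Gm20388 were at 0. So were all 1351 protein-coding genes lying wholly inside the spans of any other genes, including 684 that share no exon with another gene. Among protein-coding genes without any overlap, 2900 of 11728 were at 0 (24.7%). The settings of the authors' counting are not given in the sources used here. The other 7 genes share at most 1.71% of their span with another gene.

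**Figure D1:**
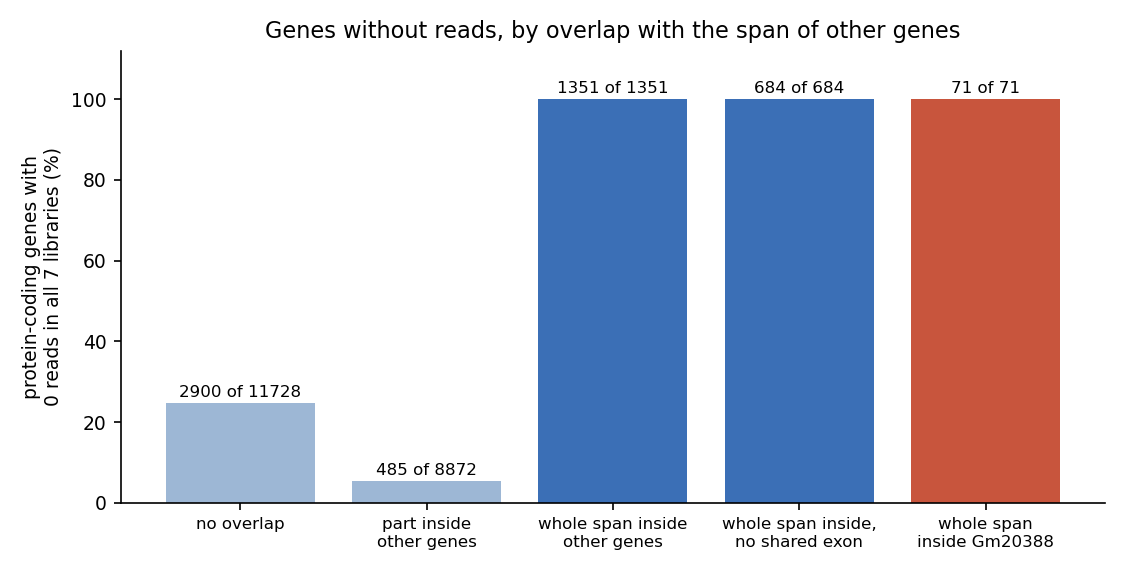
Share of protein-coding genes (vertical axis, percent) with 0 reads in all 7 libraries, by how the span of the gene overlaps others; numbers above the bars count genes. Every gene wholly inside others was at 0 (1351 of 1351), among them Slc7a5 and the other 70 genes inside Gm20388 (red, 71 of 71), against 2900 of 11728 genes without overlap.

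Levels of the other genes were compared per length. Slc3a2, the heavy chain that carries Slc7a5 and Slc7a8 to the membrane, was highest in controls, at 41.4 ± 3.69 CPM per kb of exon (SD, n = 4). Its light chain Slc7a8 followed at 32.7 ± 5.85. The step down to Slc16a10 at 4.50 ± 2.09 and Slco1c1 at 3.64 ± 1.30 was far larger than any SD, and these neighbours differed from each other by less than their SDs. Crym was at 1.81 ± 0.538 and Dio2 at 0.879 ± 0.207, while Dio3 was at 0.0394 ± 0.0455, which is below the limit of 3 counts. In the mutants Slc3a2 was again first at 34.2 ± 2.66 and Slc7a8 next at 24.5 ± 0.678 (SD, n = 3). There Slco1c1, at 3.26 ± 0.341, stood above Slc16a10 at 2.59 ± 0.311, which lay close to Crym at 2.43 ± 0.9904. Dio2 (0.881 ± 0.104) and Dio3 (0.0257 ± 0.0445) were again last. Nuclear RNA holds unspliced transcripts, and per kb of the whole span, introns included, the controls gave 8.87 for Slc3a2 and 2.74 for Slc7a8. On that scale Slco1c1 (0.412), Crym (0.391), Dio2 (0.368) and Slc16a10 (0.304) came close together, so the order of these 4 depends on which length is used.

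In the comparison of mutants with controls, 6 of the 8 genes had enough reads to be tested, and 0 passed an adjusted p of 0.05 in edgeR's quasi-likelihood test, with 9.42% of all 16448 tested genes called. At an unadjusted p under 0.05 there were 3 (Slc16a10, Slc7a8 and Slc3a2), all lower in mutants, where 11.7% of all tested genes were lower at that level. DESeq2 called 0 of them, with 11.2% of genes called. With limma-voom and sample quality weights the same 3 genes passed, all lower, with 9.54% of all genes called lower. Without controls 1 and 4 these 3 again passed in edgeR (8.48% of all genes called lower), while without control 1 alone 2 passed (12.5% of genes called) and without control 4 alone 1 (14.5%). The median log2 fold change of the 6 was -0.22, beside -0.01 for all tested genes, of which 52.0% were below 0. One of the 6, Slc7a8, had groups that did not overlap with mutants lower, which held for 10.7% of all tested genes.

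**Figure D2:**
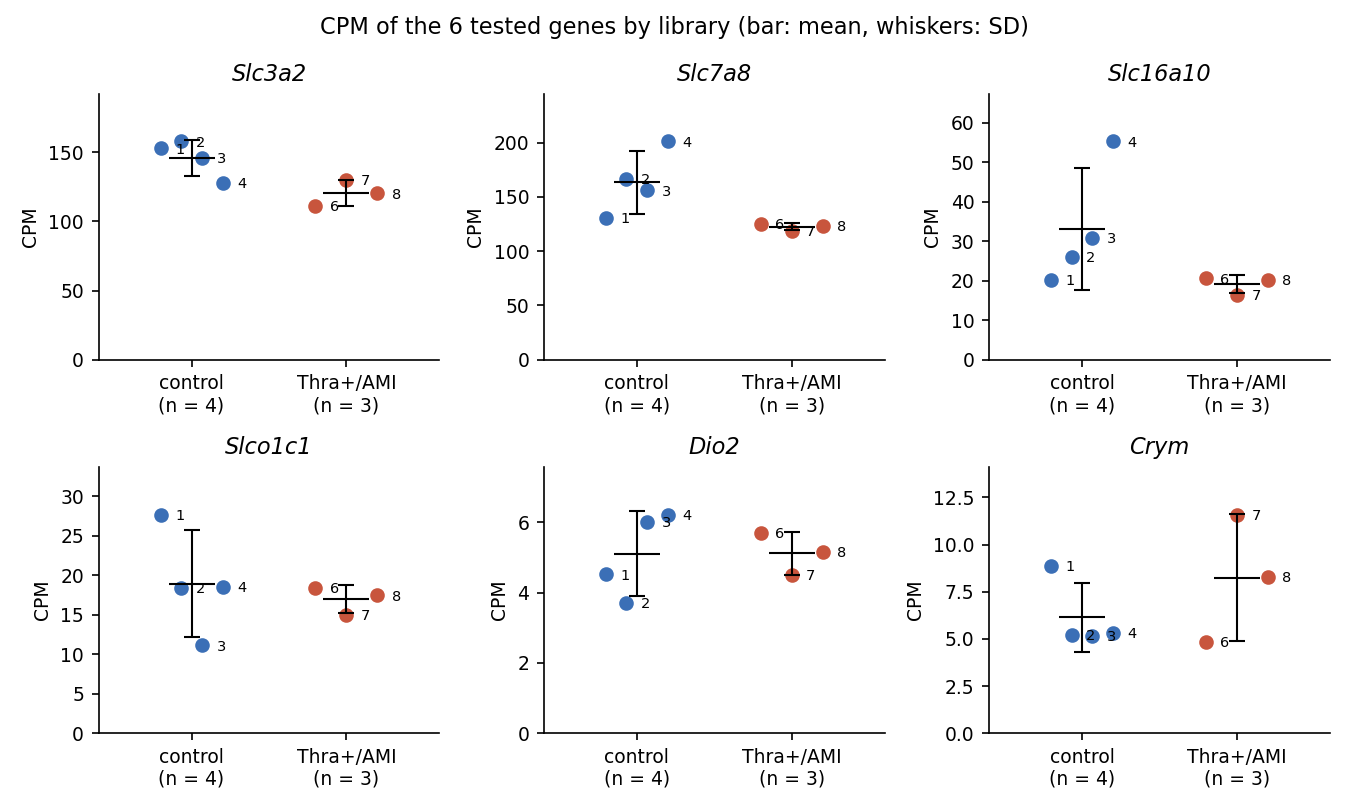
CPM (vertical axes, each starting at 0) of the 6 tested genes in each library, numbered as in the text; blue points are controls, red points Thra+/AMI, long bars the mean and whiskers the SD. Slc7a8 is the gene whose groups are apart, and control 4 is the high point of Slc16a10 at 55.2 CPM.

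Slc7a8 (ENSMUSG00000022180.7, chr14:54722209-54781946) encodes a light chain that exchanges neutral amino acids and also carries thyroid hormones and their iodine-poor products. It was at 130.4, 166.4, 156.0 and 201.1 CPM in controls 1 to 4 and at 125.4, 118.8 and 123.4 CPM in mutants 6, 7 and 8. All 3 mutants were below all 4 controls, and the mutants lay close together, with a coefficient of variation of 2.77% against 17.9% in controls. The means were 163.5 ± 29.3 (SD, n = 4) and 122.5 ± 3.40 CPM (n = 3), and the fitted difference of mutants from controls was -25.03%. As a log2 fold change this was -0.42 ± 0.14 (SE; 95% interval -0.72 to -0.11; edgeR adjusted p = 0.0875). Without control 1, the control nearest to the mutants, the value was -0.51 with adjusted p = 0.00907, and without controls 1 and 4 it was -0.40 with adjusted p = 0.00233. Over 15 alternative settings, each with lower levels in mutants, the adjusted p ran from 0.00233 to 0.287 and 4 passed. Summed astrocyte markers were at 249.7, 285.6, 252.7 and 317.5 CPM in controls 1 to 4, the same order of controls as Slc7a8. They were at 223.3, 213.0 and 198.5 CPM in mutants 6, 7 and 8, below all controls but in another order than Slc7a8. Most of that sum was 1 gene, the bicarbonate transporter Slc4a4, singled out after its values were seen, at 167.6 to 248.1 CPM in controls and 133.4 to 156.9 CPM in mutants. The other 7 markers summed to 82.1, 50.1, 44.4 and 69.4 CPM in controls 1 to 4 and 58.6 to 66.3 CPM in mutants. The groups then overlapped, and control 1, lowest of the controls for Slc7a8, was the highest library. The part of astrocyte nuclei in the levels of Slc7a8, Slc3a2 and Slc16a10 was not tested.

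Slc3a2 (ENSMUSG00000010095.13, chr19:8706882-8723369) encodes the heavy chain that the light chains need in order to reach the membrane. Controls 1 to 4 were at 152.8, 157.8, 146.2 and 128.0 CPM and mutants 6, 7 and 8 at 111.3, 130.1 and 120.3 CPM. Control 4 was the lowest control and lay between mutants 7 and 8, so the groups overlapped by that library alone. From 146.2 ± 13.0 (SD, n = 4) to 120.6 ± 9.38 CPM (n = 3), the fitted difference was -17.5%, the smallest of the 3 in size. The log2 fold change was -0.28 ± 0.11 (SE; 95% interval -0.52 to -0.03; edgeR adjusted p = 0.163). Without control 4 it was -0.34 with adjusted p = 0.0366, and over the 15 alternatives the adjusted p ran from 0.0130 to 0.442, again with 4 that passed.

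Slc16a10 (ENSMUSG00000019838.11, chr10:40033532-40142258) encodes a carrier of aromatic amino acids that also moves thyroid hormones in both directions across the membrane. Its levels were 20.2, 26.0, 30.9 and 55.2 CPM in controls 1 to 4 and 20.6, 16.4 and 20.2 CPM in mutants 6, 7 and 8. Control 1 lay among the mutants and control 4 far above every other library, so the controls varied by 46.5% (coefficient of variation) and the mutants by 11.99%. The fitted difference was -42.3%, the largest in size among the 6 tested genes, from 33.1 ± 15.4 (SD, n = 4) to 19.1 ± 2.29 CPM (n = 3). Its log2 fold change was -0.79 ± 0.28 (SE; 95% interval -1.40 to -0.18; edgeR adjusted p = 0.107). The size rested on control 4: without it the value was -0.43 and the adjusted p stayed above 0.05, while without control 1 it was -0.96 with adjusted p = 0.0246. Without both it was -0.58 with adjusted p = 0.00614. The range of adjusted p over the 15 alternatives was 0.00614 to 0.365.

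The ratio of control 1 to control 4 is set beside gene length for the tested carriers. Slc16a10 spans 108.7 kb and its log2 ratio of control 1 to control 4 was -1.43, beside a median of -0.70 for genes longer than 100 kb. Slc7a8 spans 59.7 kb, with a ratio of -0.62 beside a median of -0.17 for genes of 30 to 100 kb. Both ratios lay below the lower quartile of their length class (-1.05 and -0.47). Slc3a2 spans 16.5 kb and went the other way, at 0.25 beside 0.15 for genes of 10 to 30 kb. Slco1c1, at 45.8 kb, had a ratio of 0.57, opposite in sign to the median for genes of 30 to 100 kb. When each library's trend on length was removed by an offset in edgeR, the log2 fold changes kept their size at -0.77, -0.43 and -0.28 for Slc16a10, Slc7a8 and Slc3a2. Their adjusted p then became 0.0200, 0.00561 and 0.0487, with 8.85% of all tested genes called lower. Between the groups, the median log2 fold change of all genes in these length classes lay between -0.0026 and 0.0079. For genes shorter than 10 kb it was -0.07.

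**Figure D3:**
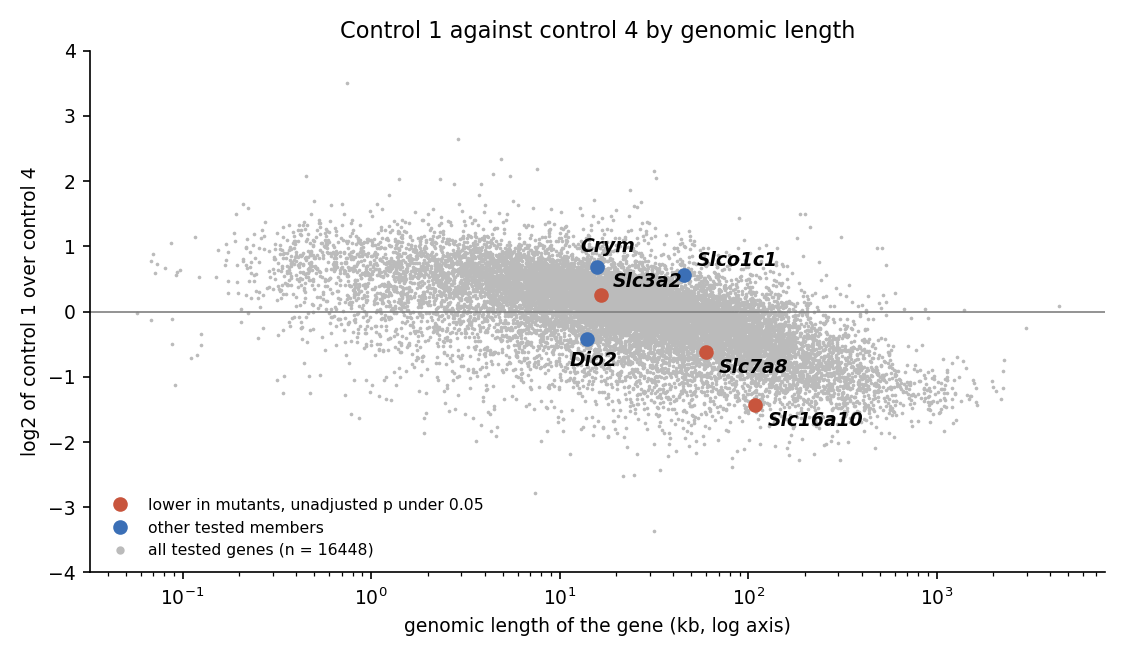
Log2 ratio of control 1 to control 4 (vertical axis) against the genomic length of each gene (horizontal axis, kb, log scale) for the 16448 tested genes in grey; red points are Slc16a10, Slc7a8 and Slc3a2, blue points the other tested genes of the group. The ratio declines with length, and Slc16a10 at -1.43 and Slc7a8 at -0.62 lie on the low side while Slc3a2 lies at 0.25. Slco1c1, among the blue points, lies at 0.57.

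**Figure D4:**
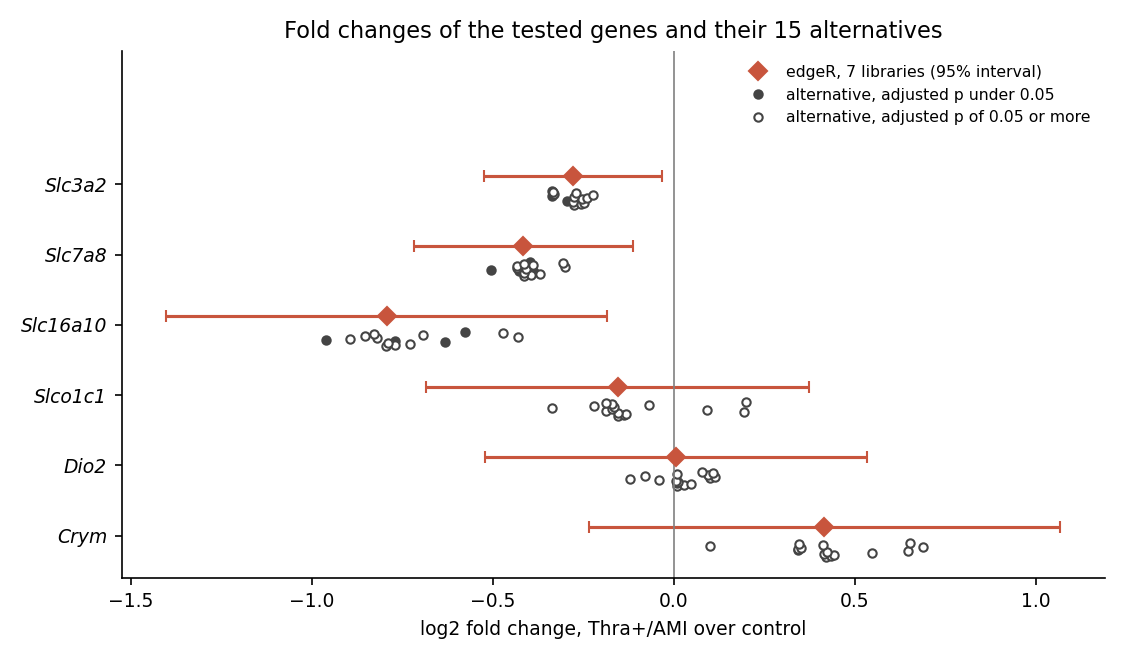
Log2 fold change of Thra+/AMI over control (horizontal axis) for the 6 tested genes; diamonds are the edgeR fit of all 7 libraries with its 95% interval, and circles are the 15 alternatives, filled where the adjusted p was under 0.05. Intervals of Slc3a2, Slc7a8 and Slc16a10 lie below 0, each with 4 filled circles, while those of Slco1c1, Dio2 and Crym include 0.

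Slco1c1 (ENSMUSG00000030235.17, chr6:141524368-141570177) encodes a thyroxine carrier best known from brain capillaries and astrocytes. It was at 27.6, 18.4, 11.1 and 18.5 CPM in controls 1 to 4 and at 18.4, 14.96 and 17.4 CPM in mutants 6, 7 and 8. The mutants lay inside the range of the controls. The log2 fold change of -0.16 ± 0.24 (SE; 95% interval -0.69 to 0.37; edgeR adjusted p = 0.780) leaves room for a difference in either direction, and it turned to 0.09 without control 1. Summed endothelial markers were 126.6, 83.9, 57.8 and 116.2 CPM in controls 1 to 4 and 83.2, 54.7 and 82.9 CPM in mutants 6, 7 and 8. Control 1 was thus highest and control 3 lowest among controls for both Slco1c1 and this sum, and mutant 7 lowest among mutants for both. Control 4 had almost the Slco1c1 level of control 2 but a higher sum. The pattern was not limited to endothelial markers. Summed markers of mural cells were at 98.98, 35.25 and 34.79 CPM in control 1, control 3 and mutant 7. Astrocyte markers other than Slc4a4 summed to 82.1, 44.4 and 58.6 CPM there. Both sums were also highest in control 1 and lowest in control 3 among controls, and lowest in mutant 7 among mutants. All 8 endothelial markers had reads, all 8 had a fold change below 0 (median -0.33) and 0 were called by edgeR (0 at an unadjusted p under 0.05), 0 by DESeq2 and 0 by limma-voom. The part of these cell types in the level of Slco1c1 was not tested. In sorted nuclei of this kind, fewer nuclei of a type and less RNA per nucleus cannot be told apart.

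The gene of the activating enzyme, Dio2 (ENSMUSG00000007682.6, chr12:90724552-90738438), was read at a low level, with 49 to 79 reads per library. Controls 1 to 4 were at 4.52, 3.703, 6.01 and 6.21 CPM and mutants 6, 7 and 8 at 5.71, 4.50 and 5.16 CPM. The groups overlapped throughout and the means were 5.11 ± 1.21 (SD, n = 4) and 5.12 ± 0.607 CPM (n = 3). The fitted log2 difference was 0.01 ± 0.24 (SE, edgeR adjusted p = 0.993). Its 95% interval was -0.52 to 0.53, which leaves room for a difference in either direction. The interval is not a limit of detection. The astrocyte sums given beside Slc7a8 did not overlap between groups, but did once Slc4a4 was taken out. Of 8 astrocyte markers 7 were tested: Slc4a4 fell in mutants (log2 fold change -0.54, edgeR adjusted p = 0.0366) and Sox9 rose (1.37, adjusted p = 0.00281), while Gfap was at 0 and lies wholly inside another gene. What these cells contribute to Dio2 was not tested.

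The inactivating enzyme Dio3 (ENSMUSG00000075707.5, chr12:110279068-110281097) had 2, 0, 0 and 2 reads in controls 1 to 4 and 2, 0 and 0 reads in mutants 6, 7 and 8. Every library was below the limit of 3 counts, so no fold change is given. At this depth Dio3 was not detectable in either group beyond 0.226 to 0.275 CPM.

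Crym (ENSMUSG00000030905.5, chr7:120186380-120202111) encodes a cytosolic protein that binds triiodothyronine. It was at 8.88, 5.21, 5.18 and 5.32 CPM in controls 1 to 4 and at 4.85, 11.6 and 8.29 CPM in mutants 6, 7 and 8. Control 1 was above the other controls, mutant 7 was the highest library and mutant 6 the lowest, so the groups overlapped fully. The log2 fold change was 0.42 ± 0.30 (SE; 95% interval -0.24 to 1.07; edgeR adjusted p = 0.473), and it was 0.10 without mutant 7, 0.69 without mutant 6 and 0.65 without control 1, each without a call. Crym is also known from striatal neurons, and summed markers of striatal projection neurons were 87.6, 111.8, 130.2 and 81.1 CPM in controls 1 to 4 and 133.9, 155.6 and 149.0 CPM in mutants 6, 7 and 8. Mutant 7 was thus highest for both, but control 1, high for Crym, was low for this sum. Mutant 6, lowest for Crym, was above every control for it. Summed glutamatergic markers were lowest in mutant 7, at 220.1 CPM. All 5 striatal markers had reads, and Rgs9 alone rose (log2 fold change 0.81, edgeR adjusted p = 0.0104), while the other 4 lay between -0.03 and 0.03. The part of such cells in the level of Crym was not tested.

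**Figure D5:**
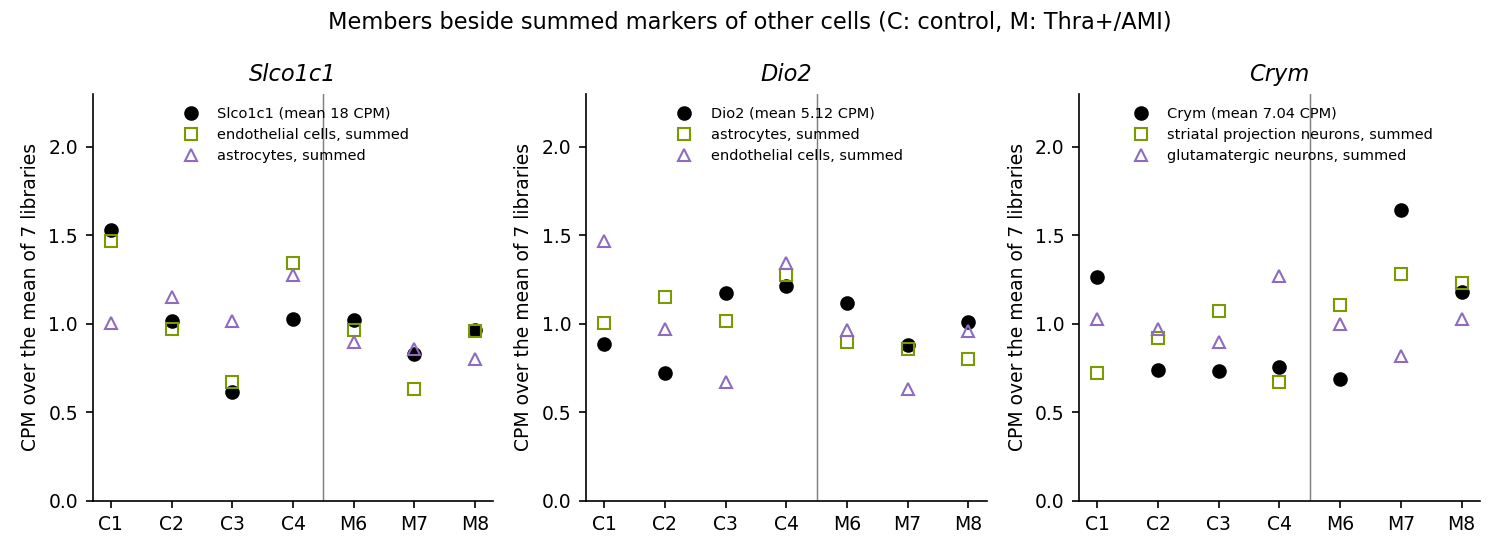
CPM of Slco1c1, Dio2 and Crym (black) and of summed marker lists of other cells (open green and purple), each divided by its mean over the 7 libraries (vertical axis), for controls (C1 to C4) and Thra+/AMI (M6 to M8). Control 1 is high for Slco1c1 and for endothelial markers, and mutant 7 is high for Crym and for striatal markers. Mutant 6 is lowest for Crym but above every control for striatal markers, and glutamatergic markers are lowest in mutant 7.

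Genes with a profile like that of Slc16a10, the gene with the largest fold change in size among those at 5 CPM or more, were ranked by the root-mean-square difference of centred log2 CPM over the 7 libraries. The closest of 11796 genes were Tgfbr3 (0.0861), AC164314.1 (0.105) and Fli1 (0.120), where the median gene differed by 0.572. Each shared the high value of control 4: Tgfbr3 was at 25.9 CPM there and at 6.79 to 15.4 CPM elsewhere. Their spans of 183.1, 118.7 and 120.7 kb were all longer than 100 kb. None of the 3 was called by edgeR, with adjusted p of 0.100, 0.169 and 0.147. With a prior count of 0.5 in place of 2 for the log2 CPM, the third was instead A730060N03Rik (0.122), which spans 24.4 kb and was called lower by edgeR (adjusted p = 0.0336).

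The wider set of genes around these carriers and enzymes was read from 5 lists, and edgeR called 0 genes in each with all 7 libraries, beside the 9.42% of all tested genes. Leaving out control 1, control 4 or both changed these zeros, except for the heterodimeric and L-type list, which stayed at 0 without either or both. Other methods and scalings with all 7 libraries also changed some of them. Of 15 other carriers, binding proteins and enzymes of thyroid hormone, 7 were tested. At an unadjusted p under 0.05, 3 of these were higher and 1 lower, where 10.9% of all tested genes were higher at that level. DESeq2 called 1 and limma-voom 3, with 19.1% of all genes called by the latter. Scaled by library totals alone, edgeR called 1, with 8.52% of all genes called. With the length offset it called 1 as well (16.8%). In edgeR, 3 were called without control 4 (14.5% of all tested genes called) and without controls 1 and 4 (16.7%). Without control 1 there was 1 (12.5%). The median log2 fold change was 0.36, the reverse in sign of the transporters above, but it was -0.06 with limma-voom and -0.13 without mutant 6. At the upper end was Slco3a1, a widely expressed organic anion carrier that takes up thyroxine, named here after its values were seen. It was at 114.3, 184.1, 163.3 and 252.9 CPM in controls 1 to 4 and at 313.0, 261.4 and 266.3 CPM in mutants 6, 7 and 8. All mutants were above all controls, and the log2 difference was 0.65 ± 0.21 (SE, edgeR adjusted p = 0.0764). At the lower end was Slco2b1, at -0.65 (adjusted p = 0.207). Serpina7, the gene of a hormone binding protein of blood, was at 0, and Ttr, the binding protein of cerebrospinal fluid, had at most 5 reads in any library.

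Of 10 other amino acid transporters of the heterodimeric and L-type families, 6 were tested, with 0 at an unadjusted p under 0.05 and a median of -0.07. In either direction, 22.5% of all tested genes reached that level in edgeR. They ran from -0.24 (Slc7a10) to 0.05 (Slc7a7), and the smallest adjusted p was 0.424 for Slc3a1, the other heavy chain. Of 12 other genes of the monocarboxylate transporter family, to which Slc16a10 belongs, 11 were tested, 2 were lower at an unadjusted p under 0.05 and the median was -0.14. Of all tested genes, 11.7% were lower at that level. Slc16a6 was at -0.52 (adjusted p = 0.0952), and Slc16a8 was at 0 and lies wholly inside another gene. Among 7 genes of selenocysteine incorporation, on which the deiodinases depend, 6 were tested and had a median of -0.08. The lowest was Sephs2, which makes the selenium donor, at -0.64 (adjusted p = 0.105). It was the 1 gene of these 6 at an unadjusted p under 0.05, beside the 11.7% of all tested genes lower there. All 4 genes that add ubiquitin to the type 2 deiodinase or remove it were tested, with a median of -0.07. The ligase subunit Wsb1 was at 0.42 (adjusted p = 0.191) and was the 1 gene of these 4 at an unadjusted p under 0.05. It was higher in mutants, as were 10.9% of all tested genes at that level. The monocarboxylate and ubiquitination lists each had 1 call without control 1 and without controls 1 and 4, beside 12.5% and 16.7% of all tested genes. The selenocysteine list had 2 without control 4, beside 14.5%. With the length offset, 1 gene was called in each list other than the heterodimeric and L-type one, beside 16.8% of all genes. In the last 4 lists, limma-voom called 0, 1, 1 and 1 genes (19.1% of all genes) and DESeq2 0 in each (11.2%).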

How the data were processed

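RNA was read from 7 libraries of sorted cortical nuclei (SMART-Seq cDNA, Nextera XT libraries, paired-end NextSeq reads, per the labels' protocols). The deposited values are whole-number counts of reads per gene, not normalized. Bowtie2 2.5.3 and the builds mm10 and GRCm38 are named in the submitters' processing notes; the counting program is not given in the sources used here. All 55450 gene identifiers matched GENCODE M21 (GRCm38), the source of symbols and coordinates. Genes passing filterByExpr (16448) were fitted with edgeR 4.0.16 in R 4.3.3 (TMM factors, robust quasi-likelihood, group as the only term), with Benjamini-Hochberg adjustment over all tested genes and calls at adjusted p under 0.05. In counts simulated for this comparison (16175 genes), 74 of 99 genes changed by 1 on the log2 scale and 92 of 98 changed by 2 were recovered, with 14 false calls. The simulation held no length trend between libraries and no change smaller than 1. It therefore does not give the recovery for changes of the size fitted for the 8 members. Alternatives used DESeq2 1.42.0, limma 3.58.1, other scalings, no filter, a length offset and omitted libraries. Named genes are all 8 members, Thra, any called genes of 5 pathway lists (there were none) and the 3 nearest profiles; other list genes were named after their values were seen. The members and lists were chosen with earlier results of these data known, and the GGTCA search after the sequences were seen. PCR reads carry no molecular identifiers, so count limits cover counting error only.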

Additional observations from a re-analysis of the deposited data

Results flagged for a closer look

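Of 18 values examined over the 4 controls, 1 had a library far from the others by Dixon's criterion, where chance gives about 1 in 20 (0.9 of 18). For Crym, control 1 was at 8.88 CPM and the other 3 controls were at 5.18 to 5.32 CPM. The gap was 0.960 of the whole range of the controls, above the 95% critical value for 4 samples. Without control 1, the log2 fold change of Crym was 0.65 in place of 0.42, with an edgeR adjusted p of 0.153.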

How the results depend on the processing

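No paired analysis was possible because the groups share no replicate numbers. Over all genes, the 1549 called became 3147 with limma-voom, 2766 with the length offset and 2778 without controls 1 and 4, and 734 to 2347 when each library was left out in turn (2347 without control 4, 1016 without control 3, 766, 734 and 816 without mutants 6, 7 and 8). Of the 8 genes, the 0 called became 3 under each of the first 3 settings and 0 to 2 with single libraries left out. The log2 fold changes of Slc16a10, Slc7a8 and Slc3a2 kept their direction in all 15 alternatives. They were -0.63, -0.39 and -0.30 with limma-voom (adjusted p 0.0163, 0.00766 and 0.0298), -0.77, -0.43 and -0.28 with the length offset, and -0.58, -0.40 and -0.34 without controls 1 and 4. Without control 4 and mutant 8, which had few Y-linked reads, they were -0.47, -0.31 and -0.34. Their edgeR adjusted p was then 0.177, 0.199 and 0.127, and 0 of the 8 genes were called. With single libraries left out the fold changes of these 3 genes ran from -0.96 to -0.43, -0.51 to -0.30 and -0.34 to -0.22. The value of Slco1c1 turned to 0.19 with limma-voom and 0.20 without controls 1 and 4, and ran from -0.34 to 0.09 with single libraries left out (0.0904 without control 1). Dio2 ran from -0.12 to 0.11 and was below 0 without control 1 (-0.04), control 2 (-0.12) or mutant 6 (-0.08). Crym stayed above 0, from 0.10 to 0.69. Apart from the libraries left out, the cause of these changes was not tested. With a prior count of 0.5 for the profiles, 2 of the 3 genes nearest to Slc16a10 were the same, and the third was a shorter, called gene. Depth limits Dio3 and, at 49 to 79 reads, Dio2.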
